A study of Mus musculus with 12 samples.

Results

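The fragments described here are all tRNA-derived small RNAs (tsRNAs) read in the livers of NS-KO mice 3 days after CCl4 (NS-KO D3) and of wild-type mice at the same time (WT D3). Members are the distinct read sequences of 14 to 40 nt with at least 1 read in any of these 4 libraries, each counted once. There were 57610 of them, of 87699 in all 12 libraries of the series, and 3484 were read in each of the 4. Another 35203 rested on 1 read, and 9037 reached 20 CPM (reads scaled to an equal library total, so a relative measure), the study's limit for an expressed tsRNA, in at least 1 of the 4 libraries.

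NS-KO (NSun2-/-) mice carry a CRISPR/Cas9 deletion in NSun2, made by injecting zygotes, and were bred on B6D2F1/Crl and kept as heterozygotes. All mice were B6D2F1/Crl males, and the study used littermates. Their age is given as 8 to 12 weeks, and the paper's methods give 9 to 12 weeks at the injection of CCl4. D3 mice were taken 3 days after CCl4, a liver poison injected into the peritoneum (2 mL per kg of 40% CCl4, diluted with corn oil), and the livers are whole tissue, so that fewer cells of a type and less RNA per cell cannot be told apart. NS-KO D0 and WT D0 livers (corn oil alone) and NS-KO D27 and WT D27 livers (repeated CCl4, day 27), with 2 libraries each, serve here only to ask where day 3 differs. Neither the loss of NSun2 mRNA nor liver identity can be checked in tRNA fragments.

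NSUN2 is a methyltransferase that makes 5-methylcytosine in tRNAs, mainly near the variable loop, and it also methylates tRNAs made inside mitochondria. Transfer RNAs that lack the mark are known to be cut more easily by nucleases such as angiogenin. A nuclear tRNA gene is transcribed with a 5′ leader and a 3′ trailer, the trailer ends in a run of T at the terminator of RNA polymerase III, and RNase Z releases it as a tRF-1. Fragments of the mature tRNA are named by their ends: tRF-5a, tRF-5b and tRF-5c (of increasing length) and tiRNA-5, which reaches the anticodon, start at the first base, whereas tRF-3a, tRF-3b and tiRNA-3 end at the CCA tail that is added to every tRNA. The authors' class Other holds the remaining reads, from inside a tRNA or from either end. Mitochondrial tRNAs are cut out of long transcripts of both strands of the mitochondrial genome, and are grouped below by the strand, light or heavy, on which they are encoded.

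A few sequences that come up again below are printed first. The first set compares the 5′ ends of 3 glycine tRNAs, with capitals at the bases that differ from tRNA-Gly-CCC-5-1, since reads of tRNA-Gly-CCC-2-1 can be told from those of its neighbors.
tRNA-Gly-CCC-2-1 (GRCm38 chr3:96351167-96351237): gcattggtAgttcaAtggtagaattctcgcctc
tRNA-Gly-CCC-5-1 (GRCm38 chr3:96311254-96311324): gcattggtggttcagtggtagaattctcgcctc
tRNA-Gly-GCC-1-1 (GRCm38 chr1:171066631-171066701): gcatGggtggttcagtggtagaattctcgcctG

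The second set is mitochondrial tRNA-His (chrM:11545-11612), the source of the 5 fragments with the largest increases, with its anticodon in capitals, and the first of those fragments, which begins at base 17 and spans 32 nt.
mt-His-GTG with its CCA tail: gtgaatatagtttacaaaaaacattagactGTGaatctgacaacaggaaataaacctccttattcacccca
fragment from base 17: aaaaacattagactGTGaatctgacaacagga

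The third set holds tRF-1 sequences that were higher in NS-KO D3, with the terminal T run in capitals, and the most read tRF-1 of the 4 libraries, that of the initiator methionine tRNA, which was not.
tRF-Asp-GTC-044 (tRNA-Asp-GTC-1-11): tctggacacatgtggcTTTT
tRF-Ile-AAT-012 (tRNA-Ile-AAT-1-5): gtggtagattcTTT
tRF-Val-CAC-002 (tRNA-Val-CAC-3-1): acacttgtcagtttcTTT
tRF-Gln-CTG-027 (tRNA-Gln-CTG-3-2): ttggtgtcaggctagTTTT
tRF-1 of tRNA-iMet-CAT-1-1: tcggaggctttgTTTT

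The last set holds fragments that were lower in NS-KO D3, with the CCA end in capitals where there is one.
tRF-3a of tRNA-Gly-ACC and Val tRNAs: aaccgggcggaaacaCCA
tRF-3a of tRNA-Ser-GCT: atcccatcctcgtcgCCA
5′ end of tRNA-Lys-TTT-1-1: gcccggatagctcagtcgg

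The libraries held 221446 and 127326 tRNA reads in NS-KO D3, against 81515 and 193377 in WT D3. The 2 NS-KO D3 libraries stood apart in the number of distinct sequences, 32656 and 25470, against 12468 and 15896 in WT D3, and none of the other 8 libraries had more than 16015. Log2 CPM of the sums described below correlated across sums by 0.9539 between the NS-KO D3 replicates and 0.9154 between the WT D3 replicates, and by 0.7333 to 0.8636 between genotypes. A count of 0 allows up to 13.55 and 23.56 CPM in the NS-KO D3 libraries and up to 36.8 and 15.51 CPM in the WT D3 libraries, from counting error alone. Each group has 2 libraries, and whether a library holds 1 animal is not stated in the labels.

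Reads were summed by subtype and isodecoder (all tRNAs with 1 anticodon), and each sum was compared by limma on log2 CPM with TMM scaling, with p-values adjusted by Benjamini-Hochberg over the 281 sums tested, of 801 in the table. At an adjusted p under 0.05, 50 sums were higher in NS-KO D3 (17.8% of those tested) and 33 were lower (11.7%), and the median log2 fold change was −0.08. Among 22065 single fragments, 2203 were higher (9.98%) and 117 lower (0.530%), and 3327 and 646 passed an unadjusted p under 0.05. A fragment was tested if any 1 of the 12 libraries reached 20 CPM, so some could enter only through NS-KO D3. Counts of higher fragments, here and below, may partly follow from that filter. When the 4 day 3 libraries were fitted alone, 0 of 15247 fragments passed the adjusted threshold (2603 higher and 430 lower unadjusted), and 37 sums were higher and 16 lower of 237, so the calls on fragments rest on the spread pooled over all 6 groups. With reads outside tRF-5c as the total and no TMM, 35 sums were higher and 75 lower of 244, and the median was −0.66.

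**Figure D1:**
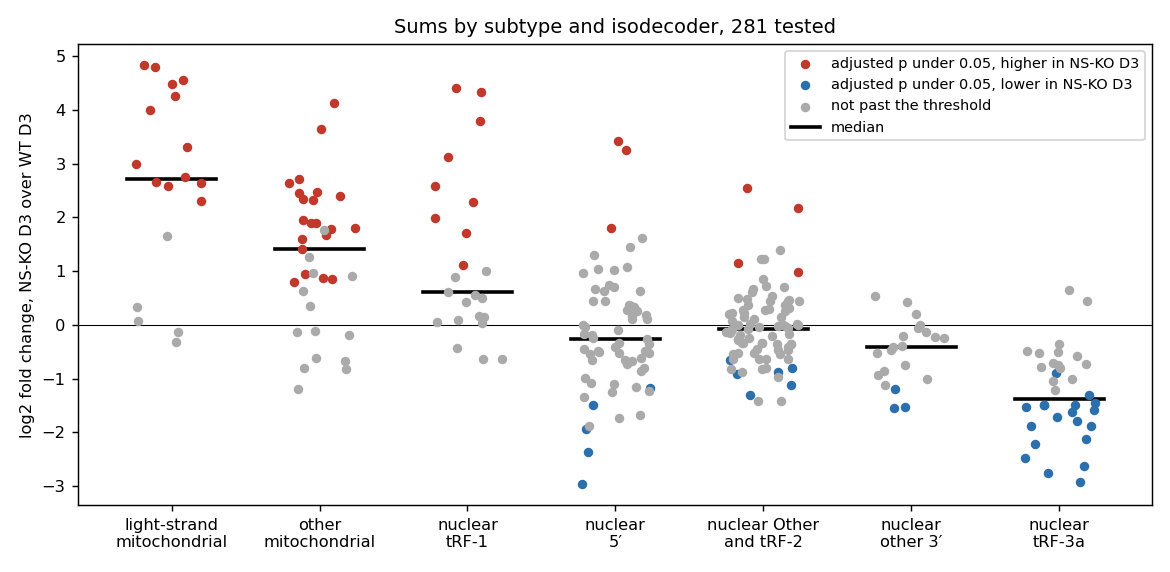
Log2 fold change of NS-KO D3 over WT D3 for the 281 sums by subtype and isodecoder (vertical axis), grouped by origin (horizontal axis), with 1 point per sum and a line at the median. Mitochondrial sums include 34 of the 50 that were higher, and the nuclear tRF-3a sums include 19 of the 33 that were lower.

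Mitochondrial fragments were the main gain in NS-KO D3 livers. They took 36.32% and 57.36% of reads in NS-KO D3, against 22.62% and 12.30% in WT D3, so the groups did not overlap, and with 2 libraries against 2 no exact permutation test can give a p below 0.3333. Of 53 mitochondrial sums tested, 34 were higher and 0 lower, with a median log2 fold change of 1.79, against −0.08 over all sums. Of single mitochondrial fragments, 1971 of 7099 were higher (27.8%) and 9 lower. At 20 CPM or more, 1233 mitochondrial tsRNAs were in both NS-KO D3 libraries and in neither WT D3 library, against 29 the other way, so the filter may favor higher ones. The count of sums fell to 21 without NS-KO D3 replicate 2, which has the highest mitochondrial share of the 4 libraries.

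By ratio, most of the largest shifts were in tRNAs of the light strand, whereas heavy-strand tRNAs gained more reads, with 28.37% and 41.82% of all reads in NS-KO D3, against 20.93% and 11.26% in WT D3. The 7 light-strand tRNAs with reads here, all but mt-Tyr-GTA, took 7.952% and 15.53% of reads in NS-KO D3, against 1.693% and 1.048% in WT D3. Of their 18 sums, 13 were higher and 0 lower, with a median of 2.71, and 928 of 2084 fragments were higher (44.5%). For heavy-strand tRNAs, 21 of 35 sums were higher, with a median of 1.41, and 1043 of 5015 fragments were higher (20.8%). The difference between the 2 strands was not tested.

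mt-Pro-TGG, which carries proline, had the highest ratio of mean CPM, 23.4. It had 6629 and 12260 CPM in NS-KO D3, against 527.5 and 279.2 CPM in WT D3, and 112 of its 200 fragments were higher. mt-Cys-GCA followed with 7054 and 15460 CPM in NS-KO D3, against 478.4 and 491.3 CPM in WT D3, a ratio of 23.2. For mt-Ala-TGC the values were 10690 and 25090 CPM in NS-KO D3, against 674.7 and 1107 CPM in WT D3, a ratio of 20.1. These tRNAs carry their amino acids for translation inside the organelle, and in all 3 both NS-KO D3 libraries lay above both WT D3 libraries. mt-Ser-TGA, 1 of 2 mitochondrial serine tRNAs, reached 16950 and 37040 CPM in NS-KO D3, against 1926 and 1169 CPM in WT D3 (ratio 17.4). mt-Asn-GTT had 2520 and 5207 CPM in NS-KO D3, against 539.8 and 284.4 CPM in WT D3 (ratio 9.38). mt-Glu-TTC and mt-Gln-TTG had lower ratios, 6.04 and 3.96, and in them too neither NS-KO D3 library overlapped WT D3.

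**Figure D2:**
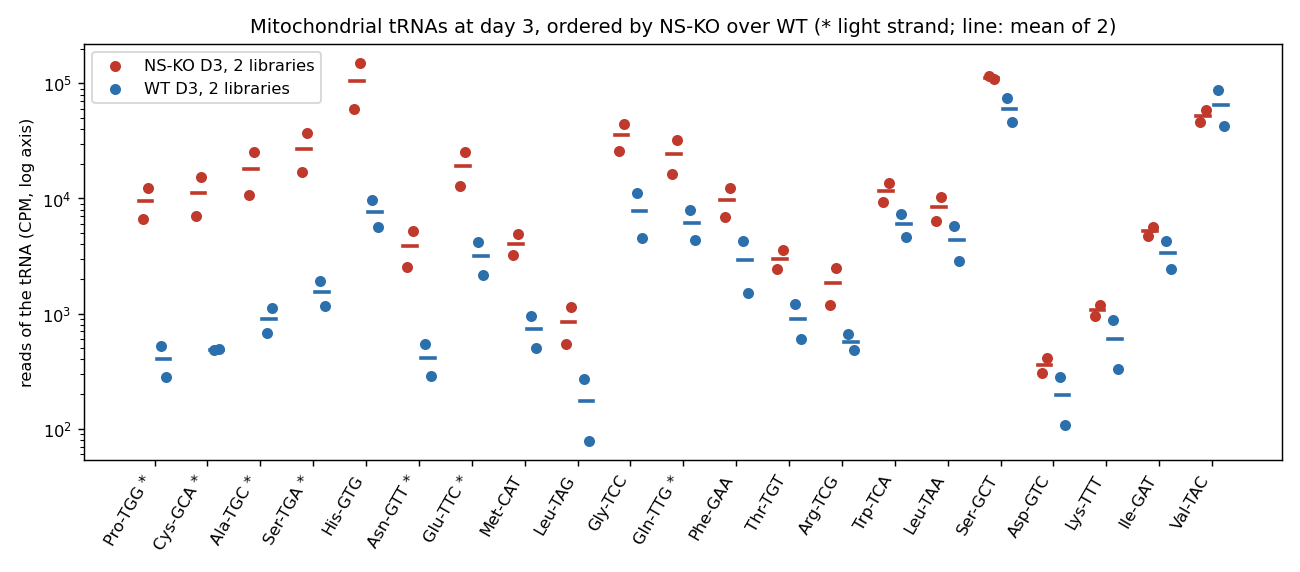
Reads of each of the 21 mitochondrial tRNAs in CPM on a log axis, 1 point per library and a line at the mean, with NS-KO D3 left of WT D3 and an asterisk for light-strand tRNAs. In 20 of 21 both NS-KO D3 libraries lie above both WT D3 libraries, with ratios of means of 3.96 to 23.4 for the light strand, and mt-Val-TAC overlaps. The 21 share the same 4 libraries, whose total mitochondrial share did not overlap either, so they are not separate tests.

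mt-His-GTG had the highest ratio on the heavy strand, and of all 21 tRNAs it had the largest gain in CPM. Its reads came to 60400 and 150500 CPM in NS-KO D3, against 9655 and 5694 CPM in WT D3, a ratio of 13.7. It made up 21.2% of mitochondrial reads in NS-KO D3 and 4.47% in WT D3 (means of 2 libraries), and 511 of its 1081 fragments were higher. The other 13 heavy-strand tRNAs had ratios of 0.805 to 5.54. mt-Val-TAC was the tRNA with the lowest ratio: it had 45900 and 59010 CPM in NS-KO D3, against 88010 and 42380 CPM in WT D3, and its groups overlapped. mt-Ser-GCT, the most read mitochondrial tRNA here, which lacks a D arm, had 115400 and 108200 CPM in NS-KO D3, against 74150 and 46400 CPM in WT D3.

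By subtype, the sums with the largest increases were reads of type Other and tRF-5b. Other reads of mt-Pro-TGG had 6552 and 12000 CPM in NS-KO D3, against 368 and 248.2 CPM in WT D3 (log2 fold change 4.84, SE 0.33, limma adjusted p = 1.1e-05). tRF-5b reads of mt-Ser-TGA had 2294 and 5576 CPM in NS-KO D3, against 171.7 and 77.57 CPM in WT D3 (4.80, SE 0.48, adjusted p = 6.2e-05). tRF-5b reads of mt-Gln-TTG had 876.1 and 1555 CPM in NS-KO D3, against 36.8 and 31.03 CPM in WT D3 (4.56, SE 0.50, adjusted p = 8.2e-05). Other reads of mt-Cys-GCA, mt-Ala-TGC, mt-His-GTG and mt-Ser-TGA rose by 4.48, 4.27, 4.13 and 4.01 on the log2 scale, with adjusted p-values of 2.1e-04 or less. tiRNA-5 reads of mt-Ser-GCT, which stop in its anticodon, had 3166 and 5372 CPM in NS-KO D3, against 331.2 and 315.4 CPM in WT D3 (3.64, SE 0.39, adjusted p = 8.1e-05), whereas its Other reads did not pass (0.92, adjusted p = 0.085). tiRNA-3 reads of mt-His-GTG, which begin in the anticodon loop and keep the CCA, had 943.8 and 1429 CPM in NS-KO D3, against 2871 and 1179 CPM in WT D3, and did not pass either (−0.62, adjusted p = 0.097).

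Start positions inside mitochondrial tRNAs gained most in share. Reads that started at bases 16 to 26 were 19.29% and 29.48% of mitochondrial reads in NS-KO D3, against 2.332% and 3.887% in WT D3. Over start positions on the mature tRNA, 61 of 139 sums passed as higher (43.9%) and 9 as lower (6.47%). The sum was higher at each of the 57 first positions of mitochondrial tRNAs, bases 1 to 57. Reads that kept the first base of a mitochondrial tRNA were a smaller share of mitochondrial reads in NS-KO D3, 34.32% and 25.13%, against 36.99% and 41.24% in WT D3, although their own sum was higher (1.15, SE 0.29, adjusted p = 0.0034). Base 10 had one of the larger differences, with 1553 and 3896 CPM in NS-KO D3, against 36.8 and 77.57 CPM in WT D3 (5.17, SE 0.65, adjusted p = 1.2e-05).

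**Figure D3:**
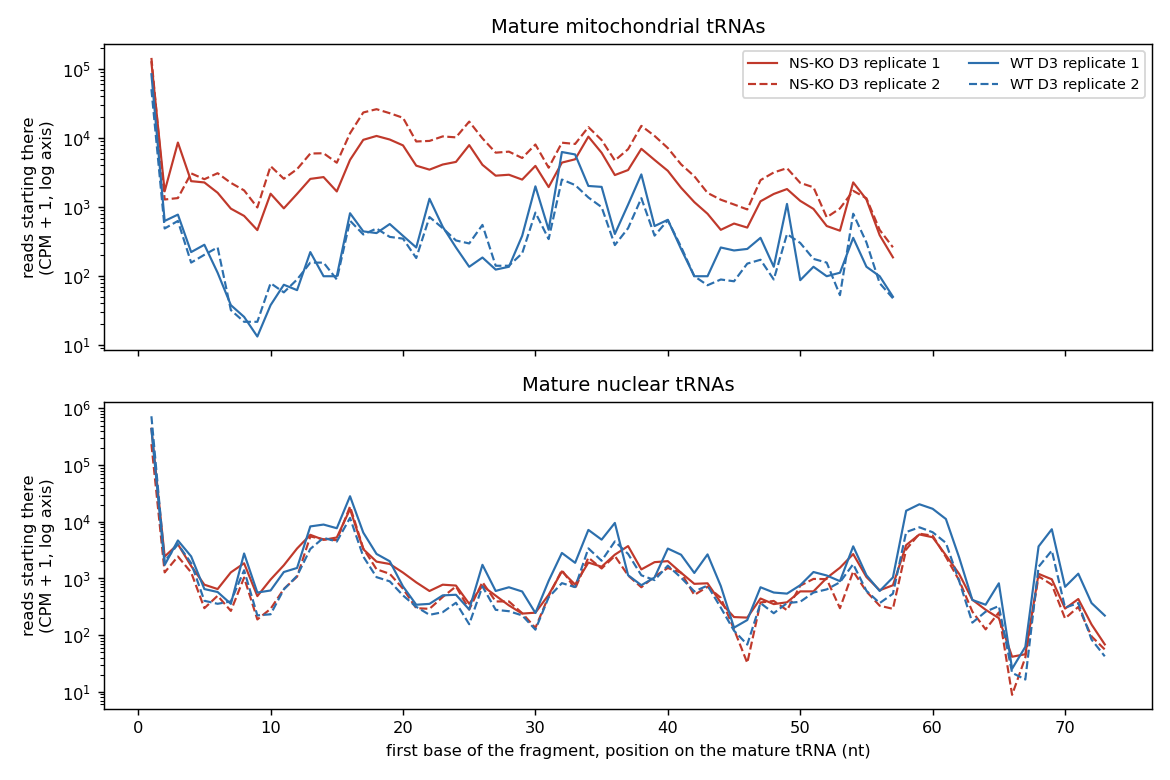
Reads by the position of their first base on the mature tRNA, in CPM + 1 on a log axis, for mitochondrial tRNAs (top) and nuclear tRNAs (bottom), with 1 line per library. At each of the 29 positions from base 2 to base 30 of mitochondrial tRNAs both NS-KO D3 lines lie above both WT D3 lines. At bases 58 to 61 of nuclear tRNAs both WT D3 lines are higher, but as a share of nuclear reads those starts overlapped.

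mt-His-GTG showed this most clearly. Of its reads, 63.55% and 63.81% began at bases 16 to 21 in NS-KO D3, against 24.17% and 31.31% in WT D3. Conversely, 5.817% and 4.521% began at base 31 or later in NS-KO D3, against 61.82% and 40.63% in WT D3. The 32-nt fragment from base 17 printed above was read 111 and 169 times in NS-KO D3, and 0 and 0 times in WT D3 (5.74, SE 0.46, adjusted p = 1.6e-04, at least 34.9-fold higher with 3 reads in each WT D3 library as the floor). The 4 next fragments began at bases 17 and 18, had 31 to 35 nt, and rose by 5.58 to 5.70 on the log2 scale. All 5 run through the anticodon and end before the CCA tail.

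Among nuclear fragments, 9 of 23 tRF-1 sums were higher in NS-KO D3 and 0 lower (median 0.62), although the share of tRF-1 in all reads overlapped, with 4.299% and 4.967% in NS-KO D3, against 7.688% and 2.557% in WT D3. Without NS-KO D3 replicate 2 or without WT D3 replicate 2, 5 sums were higher. Of single tRF-1s of nuclear tRNAs, 69 of 802 were higher (8.60%, against 9.98% of all fragments) and 3 lower. The tRF-1s that were higher came from some of the genes, which are picked out by these same calls. Of 79 tRNA genes with a tested tRF-1, 21 had at least 1 that was higher and 12 had at least 2.

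**Figure D4:**
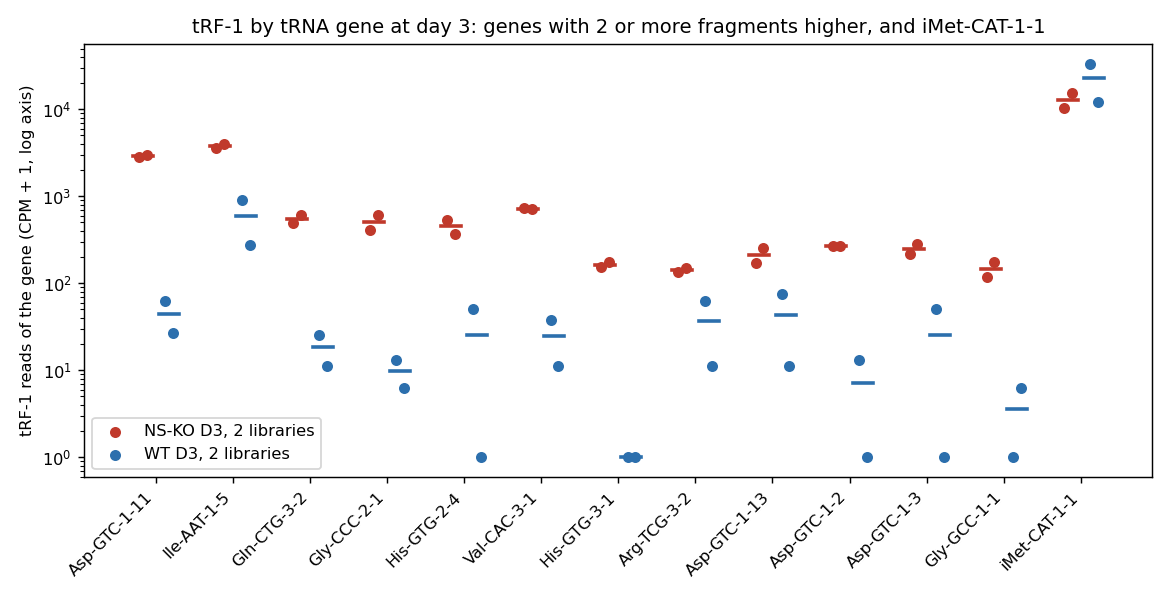
tRF-1 reads by tRNA gene in CPM + 1 on a log axis, 1 point per library and a line at the mean, with NS-KO D3 left of WT D3, for the 12 genes with 2 or more tRF-1s that were higher and for iMet-CAT-1-1. In the 12 genes every NS-KO D3 point lies above both WT D3 points, and in iMet-CAT-1-1 the groups overlap. The 12 genes were chosen by their calls in these libraries, so their separation is no independent evidence.

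Asp-GTC-1-11 had the most, with 16 of 20 tRF-1s higher. Its tRF-1s had 2827 and 3000 CPM in NS-KO D3, against 61.34 and 25.86 CPM in WT D3. The gene encodes an aspartate tRNA and lies at chr13:21911313-21911384. Its most read member in the study's screening list, tRF-Asp-GTC-044, was read 207 and 110 times in NS-KO D3, and 3 and 0 times in WT D3 (5.23, SE 0.56, adjusted p = 3.1e-04). On the same chromosome, Ile-AAT-1-5 (chr13:21882033-21882106) had 3599 and 4021 CPM in NS-KO D3, against 907.8 and 274.1 CPM in WT D3, with 8 of 23 higher. Here tRF-Ile-AAT-012 was read 432 and 312 times in NS-KO D3, and 47 and 33 times in WT D3 (2.85, SE 0.52, adjusted p = 0.0039). Val-CAC-3-1 (chr13:23300122-23300194) had 736.1 and 706.8 CPM in NS-KO D3, against 36.8 and 10.34 CPM in WT D3, with 5 of 9 higher.

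On chromosome 3, all 6 tested tRF-1s of Gly-CCC-2-1 were higher. They had 410.9 and 604.7 CPM in NS-KO D3, against 12.27 and 5.171 CPM in WT D3, and this is the same gene whose 5′ end is printed first above. Gln-CTG-3-2 (chr3:96399059-96399130) had 487.7 and 612.6 CPM in NS-KO D3, against 24.54 and 10.34 CPM in WT D3, with 7 of 10 higher. Its tRF-Gln-CTG-026, a glutamine tRF-1 of 18 nt that the study followed up, was read 5 and 6 times in NS-KO D3, and 0 and 0 times in WT D3 (1.64, SE 0.24, adjusted p = 0.0011, at least 1.33-fold higher), and the form with 1 more T, tRF-Gln-CTG-027, 46 and 40 times in NS-KO D3, and 1 and 0 times in WT D3 (3.84, SE 0.45, adjusted p = 4.4e-04). tRF-Gln-CTG-026 averaged 0 CPM in NS-KO D0, WT D0, NS-KO D27 and WT D27 too. The pooled spread behind its SE and adjusted p therefore rests largely on groups without a read. His-GTG-2-4 had 537.4 and 369.1 CPM in NS-KO D3, against 49.07 and 0 CPM in WT D3. His-GTG-3-1 had 153.5 and 172.8 CPM in NS-KO D3 and no read in either WT D3 library. Both encode histidine tRNAs, and 5 of 8 and 3 of 3 of their tRF-1s were higher.

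By chromosome, 35 of 117 tRF-1s on chromosome 13 were higher (29.9%), 7 of 23 on chromosome 1 (30.4%) and 22 of 181 on chromosome 3 (12.2%). Over all chromosomes 69 of 802 were higher (8.6%), and chromosome 3 was close to that share. Those of chromosomes 13, 1 and 3 came from 20, 5 and 12 genes, so many are forms of the same trailer. On chromosome 11, which has 18 of the 79 genes, 3 of 141 were higher (2.13%). The 2 most read tRF-1 sources showed no such rise: tRF-1s of iMet-CAT-1-1, the initiator tRNA, had 10290 and 15350 CPM in NS-KO D3, against 33480 and 12050 CPM in WT D3, with 1 of 112 higher, and Thr-CGT-1-1 had 8968 and 5718 CPM in NS-KO D3, against 12350 and 3594 CPM in WT D3, with 1 of 126 higher and 1 lower.

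By isodecoder, the higher tRF-1 sums included Gly-CCC (4.42, SE 0.61, adjusted p = 3.0e-04), Asp-GTC (4.34, SE 0.52, adjusted p = 1.7e-04), Gln-CTG (3.79, SE 0.49, adjusted p = 2.0e-04) and Ile-AAT (2.58, SE 0.32, adjusted p = 1.7e-04). tRF-1 His-GTG also passed (1.11, SE 0.37, adjusted p = 0.045) but not without any 1 of the 4 libraries or by library size alone (adjusted p = 0.21). Of the 9 isodecoders whose tRF-1s the study names, 3 were higher and 0 lower, with a median of 0.62. tRF-1 Met-CAT had a log2 fold change of −0.63 (adjusted p = 0.14), tRF-1 Arg-ACG −0.43 (adjusted p = 0.31) and tRF-1 Cys-GCA 0.10 (adjusted p = 0.81). The study's day 3 screening list of 38 tRF-1s from 20 genes was chosen on these libraries, so its direction is no independent evidence: 33 of the 37 tested were higher and 0 lower, with a median of 2.27, and 19 had no read in either WT D3 library.

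Some precursor reads outside the tRF-1 class were higher as well. Trailers that the authors' table lists as Other had 867 and 1005 CPM for Leu-TAA-3-1 (chr13:21848022-21848104) in NS-KO D3, against 0 and 5.171 CPM in WT D3, with 6 of 15 higher. Those of Lys-TTT-2-2 (chr13:21907940-21908012) had 293.5 and 251.3 CPM in NS-KO D3 and no read in WT D3, with 3 of 3 higher. Leaders, the 5′ part that RNase P removes, were higher for 19 of 158 nuclear fragments (12.0%, close to the 9.98% of all fragments) and lower for 0, and their share was 0.504% and 0.731% in NS-KO D3, against 0.286% and 0.122% in WT D3. Leaders of 5 histidine tRNA genes were among them. The leader of His-GTG-2-5 (chr3:96452495-96452566) had 266.4 and 424.1 CPM in NS-KO D3, against 12.27 and 5.171 CPM in WT D3, with 7 of 8 higher, and that of Arg-TCT-3-1 (chr13:21917162-21917247) had 126.4 and 274.9 CPM in NS-KO D3 and no read in WT D3.

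The 5′ fragments of nuclear tRNAs changed for few isodecoders. Of 65 sums 3 were higher and 5 lower (median −0.26), and tRF-5c took 30.37% and 18.03% of all reads in NS-KO D3, against 35.62% and 61.51% in WT D3. As a share of nuclear reads tRF-5c overlapped, with 47.36% and 41.37% in NS-KO D3, against 45.89% and 70.10% in WT D3. The most read sum, tRF-5c of Gly-CCC and Gly-GCC tRNAs that share a 5′ end, had 131200 and 68420 CPM in NS-KO D3, against 271000 and 472400 CPM in WT D3. It did not pass (−1.88, SE 0.73, adjusted p = 0.078), but passed by library size alone (−1.92, adjusted p = 8.4e-04) and without WT D3 replicate 1 (−2.82, adjusted p = 0.022). tRF-5c Glu-CTC (−0.19, adjusted p = 0.89), tRF-5c Gly-GCC (0.74, adjusted p = 0.41) and tRF-5c of Val-AAC and Val-CAC (−0.35, adjusted p = 0.69) did not pass.

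The 3 higher sums were tRF-5c Val-CAC, with 1960 and 2364 CPM in NS-KO D3, against 539.8 and 718.8 CPM in WT D3 (1.80, SE 0.49, adjusted p = 0.021), and tRF-5c and tiRNA-5 of Gly-CCC, described next. For tRNA-Gly-CCC-2-1, reads from its first base that are listed under this tRNA alone had 49770 and 21390 CPM in NS-KO D3, against 1129 and 2989 CPM in WT D3. In the same libraries the reads shared by Gly-CCC-5-1 and 3 Gly-GCC tRNAs had 130800 and 68050 CPM in NS-KO D3, against 270900 and 469600 CPM in WT D3, and those of Gly-GCC-1-1 had 56520 and 30490 CPM in NS-KO D3, against 19480 and 30010 CPM in WT D3. Of the fragments from the first base of Gly-CCC-2-1, 39 of 94 were higher, and of the shared ones, 0 of 319. The 33-nt sequence printed above, a tiRNA-5, was read 534 and 143 times in NS-KO D3, and 0 and 22 times in WT D3 (5.00, SE 1.10, adjusted p = 0.012). The sum tRF-5c Gly-CCC had 26640 and 15180 CPM in NS-KO D3, against 1521 and 3010 CPM in WT D3 (3.26, SE 0.65, adjusted p = 0.0035). With the tRF-1s above, tRF-1s and 5′ fragments listed under this gene were both higher. This tRNA and its fragments were chosen after their values were seen.

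The other 5 sums that passed were lower. tRF-5c Gly-TCC had 85.8 and 31.42 CPM in NS-KO D3, against 687 and 444.7 CPM in WT D3 (−2.97, SE 0.57, adjusted p = 0.0031), and tRF-5a of Glu-CTC and Glu-TTC had 131 and 141.4 CPM in NS-KO D3, against 1533 and 408.5 CPM in WT D3 (−2.36, SE 0.36, adjusted p = 5.7e-04). tRF-5a Asp-GTC also fell (−1.94, SE 0.59, adjusted p = 0.032), with adjusted p = 0.23 without WT D3 replicate 1. The 5′ piece of Lys-TTT-1-1 printed above was read 4 and 2 times in NS-KO D3, and 80 and 51 times in WT D3 (−3.90, SE 0.57, adjusted p = 0.0012), the largest decrease among single fragments that passed. tiRNA-5 reads of nuclear tRNAs were 5.90% and 4.01% of nuclear reads in NS-KO D3, against 2.18% and 2.80% in WT D3. Their most read sum, tiRNA-5 Lys-CTT, had 13240 and 5725 CPM in NS-KO D3, against 3435 and 3103 CPM in WT D3 (1.45, SE 0.61, adjusted p = 0.099).

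Many sums of short nuclear 3′ fragments were lower. Of 55 nuclear 3′ sums, 22 were lower and 0 higher in NS-KO D3 (median −0.89), and of 34 tRF-3a sums, 19 were lower and 0 higher (median −1.38). By library size alone 12 tRF-3a sums were lower. Nuclear tRF-3a took 1.297% and 1.339% of reads in NS-KO D3, against 5.449% and 2.203% in WT D3. As a share of nuclear reads it overlapped, with 2.037% and 3.14% in NS-KO D3, against 7.042% and 2.513% in WT D3. As single fragments, 32 of 509 were lower and 0 higher, and 9 were lower without WT D3 replicate 1.

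tRF-3a shared by Leu-CAA and Leu-CAG had 474.2 and 345.6 CPM in NS-KO D3, against 5005 and 2146 CPM in WT D3 (−2.92, SE 0.25, adjusted p = 2.9e-05). Some 3′ fragments of leucine tRNAs are known in human and mouse cells for a role in ribosome biogenesis. Whether the tRF-3a forms here share that role was not tested. The joint tRF-3a of Gly-ACC, Val-AAC and Val-CAC had 677.4 and 612.6 CPM in NS-KO D3, against 5790 and 2467 CPM in WT D3 (−2.48, SE 0.25, adjusted p = 6.2e-05). Within it, the 18-nt sequence printed above was read 25 and 7 times in NS-KO D3, and 117 and 132 times in WT D3 (−3.27, SE 0.56, adjusted p = 0.0028). The groups were apart in each of these. tRF-3a of Ser-GCT, Glu-TTC, Gln-CTG with Gln-TTG, Gln-CTG alone, and Phe-GAA with Ser-GGA fell by 2.76, 2.63, 2.21, 2.12 and 1.88 on the log2 scale, with adjusted p-values of 0.0068 or less. tRF-3a Tyr-GTA, the most read of the class, had 4967 and 6260 CPM in NS-KO D3, against 11560 and 4685 CPM in WT D3, and did not pass (−0.36, adjusted p = 0.41). By position, reads starting at bases 58 to 61 of nuclear tRNAs, where tRF-3a begins in most tRNAs, were lower at all 4 positions. As a share of nuclear reads these starts overlapped, with 2.791% and 4.109% in NS-KO D3, against 8.303% and 2.895% in WT D3. The 18-nt form made up 57.83% and 56.60% of nuclear tRF-3a in NS-KO D3, against 59.84% and 61.46% in WT D3. Mitochondrial 3′ fragments went the other way where they passed: tRF-3a mt-Trp-TCA had 1553 and 1155 CPM in NS-KO D3, against 306.7 and 480.9 CPM in WT D3 (1.79, SE 0.57, adjusted p = 0.040), but did not pass without any 1 of 3 libraries, and tRF-3b mt-Trp-TCA rose by 2.45 (SE 0.55, adjusted p = 0.0074).

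**Figure D5:**
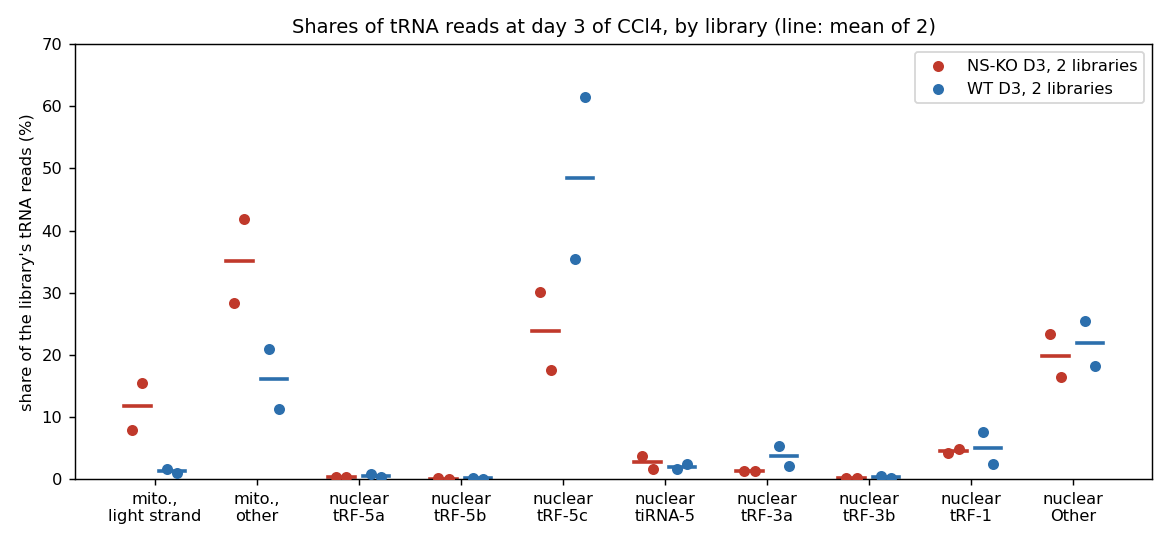
Share of each library's tRNA reads (vertical axis, %) by origin and subtype, 1 point per library and a line at the mean, with NS-KO D3 left of WT D3. Both mitochondrial classes are higher, and nuclear tRF-5c and tRF-3a lower, in both NS-KO D3 libraries than in either WT D3 library, and nuclear tRF-1 overlaps.

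Of 85 nuclear sums of type Other and tRF-2, which include reads from either end, 4 were higher and 6 lower (median −0.08). As a share of nuclear reads, Other was 36.74% and 38.5% in NS-KO D3, against 32.89% and 20.86% in WT D3, without overlap. Among 11895 fragments of mature tRNAs counted as nuclear, 105 were higher (0.883%) and 96 lower (0.807%), where sequences listed under both nuclear and mitochondrial tRNAs count as nuclear. Fragments of Gly-CCC-2-1 made up 42 of the 105, and those listed under Tyr-GTA-6-1 another 25, all of which began at bases 6 to 24. No read was listed under mt-Tyr-GTA, and whether these 25 came from that mitochondrial tRNA was not tested. Gly-CCC-2-1 and Tyr-GTA-6-1 were both chosen after their values were seen. Of nuclear leucine tRNAs, 1 of 26 sums was higher (3.85%) and 6 lower (23.1%), with a median of −0.25. Over all 281 sums, 17.8% were higher and 11.7% lower. Of 13 sums of the tRNAs that DNMT2, another cytosine methyltransferase of tRNAs, is known to methylate (Gly-GCC, Asp-GTC and Val-AAC), 2 were higher and 2 lower (median −0.16). That is 15.4% each way, near the shares of all sums.

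By length, 27 of the 54 sums by compartment and length were higher (50%) and 0 lower. The 27 were all mitochondrial, and none of the 27 nuclear lengths passed. As shares with no test, nuclear reads of 34 to 40 nt were 17.84% and 11.22% of nuclear reads in NS-KO D3, against 5.769% and 7.529% in WT D3. Mitochondrial reads of 14 to 19 nt were 20.20% and 19.59% of mitochondrial reads in NS-KO D3, against 11.50% and 15.82% in WT D3, and those of 20 to 26 nt were 43.67% and 35.73% in NS-KO D3, against 49.63% and 54.02% in WT D3. Mean length overlapped in both compartments, with nuclear means of 28.50 and 26.32 nt in NS-KO D3, against 25.79 and 29.36 nt in WT D3.

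The number of tsRNAs at 20 CPM or more was 4353 and 5590 in NS-KO D3, against 4283 and 2776 in WT D3. Mitochondrial tsRNAs numbered 2026 and 3601 in NS-KO D3, against 971 and 547 in WT D3. Nuclear tsRNAs overlapped, with 2327 and 1989 in NS-KO D3, against 3312 and 2229 in WT D3, and tRF-3a numbered 88 and 93 in NS-KO D3, against 243 and 128 in WT D3. At 10 CPM, 1 read is enough in WT D3 replicate 1, and the order of the group means for all tsRNAs turned round, with 7383 and 8872 in NS-KO D3, against 12470 and 5698 in WT D3. At an equal depth of 81515 reads the expected numbers of sequences with at least 2 reads were 5428 and 6347 in NS-KO D3, against 4283 and 3044 in WT D3. Of the 3166 tsRNAs expressed in both NS-KO D3 libraries, 1428 were below the limit in both WT D3 libraries, and 1233 of those were mitochondrial. Of the 2086 expressed in both WT D3 libraries, 366 were below it in both NS-KO D3 libraries.

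To ask which differences belong to day 3, the NS-KO over WT change at D3 was tested against that at D0 and at D27, which use other libraries. Of the 281 sums, 31 differed upward from D0 (11%) and 9 downward (3.20%), and 35 upward (12.5%) and 12 downward (4.27%) from D27. By library size alone these splits turned to 14 upward and 51 downward against D0, and 17 and 70 against D27, as the median sum moved from −0.09 to −1.33 and from −0.07 to −1.38, so only sums that pass under both scalings are named as day 3 differences below.

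The mitochondrial share of reads was also higher in NS-KO on the other days, with means of 43.2% in NS-KO D0 and 12.4% in WT D0, 46.84% in NS-KO D3 and 17.46% in WT D3, and 35.09% in NS-KO D27 and 12.71% in WT D27. With TMM, 19 of 53 mitochondrial sums differed upward from D0 and 0 downward, but by library size 7 did upward and 5 downward, with a median of 0.10. Of the 18 light-strand sums, 11 differed upward from D0 and 0 downward with TMM, and 6 upward and 2 downward by library size. Against D27 the light-strand counts were 12 and 0 with TMM, and 7 and 0 by library size. The light-strand share averaged 3.319% in NS-KO D0 and 0.7227% in WT D0, 11.74% in NS-KO D3 and 1.371% in WT D3, and 2.593% in NS-KO D27 and 0.9232% in WT D27. Other reads of mt-Pro-TGG changed by 4.84 at D3, and by 0.21 at D0 and 0.20 at D27 (4.81, 1.43 and 1.57 by library size), and the difference from D0 was 4.63 (SE 0.46, adjusted p = 4.3e-04), or 3.38 by library size. All reads of mt-Pro-TGG averaged 9445 CPM in NS-KO D3 and 403.4 CPM in WT D3, whereas at D0 they averaged 835.6 CPM in NS-KO and 227.7 CPM in WT, and at D27 632.1 CPM in NS-KO and 233.5 CPM in WT. Other reads of mt-His-GTG, mt-Cys-GCA, mt-Ala-TGC and mt-Ser-TGA, and tRF-5b of mt-Ser-TGA and mt-Gln-TTG, also passed against both days under both scalings. For Other reads of mt-Gly-TCC, mt-Gln-TTG and mt-Glu-TTC the differences passed with TMM only.

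tRF-5c Gly-CCC changed in opposite directions: its log2 fold change was 3.26 at D3, −2.75 at D0 (adjusted p = 0.028) and −3.37 at D27 (adjusted p = 0.015). The difference was 6.01 from D0 (SE 0.92, adjusted p = 0.0040) and 6.63 from D27 (SE 0.92, adjusted p = 0.0019). Reads from the first base of Gly-CCC-2-1 alone averaged 35580 CPM in NS-KO D3 and 2059 CPM in WT D3, 1239 CPM in NS-KO D0 and 964.8 CPM in WT D0, and 1428 CPM in NS-KO D27 and 3984 CPM in WT D27. tRF-1 Gly-CCC also differed from both days (3.63 from D0, adjusted p = 0.018, and 4.42 from D27, adjusted p = 0.0056), and tRF-1 Gln-CTG from D0 (3.28, adjusted p = 0.014). But tRF-1 Gln-CTG was higher at D27 as well (2.77, adjusted p = 0.012), and its D3 change did not pass as a difference from D27 (1.02, adjusted p = 0.33). tRF-1 Ile-AAT was higher at both D0 and D27 (1.98 and 1.57, adjusted p = 0.0065 and 0.015), and its day 3 value did not pass as a difference from either. tRF-3a of Leu-CAA and Leu-CAG had a log2 fold change of −2.92 at D3, −1.71 at D0 and −0.97 at D27, and by library size of −2.97, −0.44 and 0.46, so the direction at D27 turns with the scaling. The D3 change differed by −1.21 from that at D0 (SE 0.35, adjusted p = 0.045) and by −1.96 from that at D27 (SE 0.35, adjusted p = 0.0041), and passed under both scalings.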

How the data were processed

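RNA was pretreated to remove 3′ amino acids, 3′ cyclic phosphates and m1A and m3C, made into small RNA libraries, size-selected and sequenced. The authors checked reads with FastQC, trimmed them with cutadapt and aligned them with Bowtie, allowing 1 mismatch, to mature tRNAs and then to precursors (versions are not given in the sources used here), kept tsRNAs of 20 CPM or more, and the authors tested with edgeR. The deposited values are whole numbers, the read counts of each sequence in each library. Text lines stand among them, so that log2 CPM was modelled with limma.

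Each sequence was counted once. Of 439 nuclear precursors, 370 lie exactly on a GRCm38 tRNA gene. Mitochondrial strands come from background knowledge. limma with a trend was fitted to log2 CPM (TMM factors 0.4734 to 1.896 for sums, prior count 2) of all 12 libraries, with 1 mean per group and 6 residual degrees of freedom. Single fragments were tested where 1 library had 20 CPM or more, and sums with at least 10 reads and enough reads in 2 libraries. The methods call the 2 libraries per group independent biological replicates. p-values measure the spread between such libraries, and groups in which a fragment has no read add none to it. Named sums were the 10 higher and 10 lower with the largest changes among those that passed, the most read of each subtype and up to 4 of each list. Named fragments were the most read of each subtype, the 5 higher and 5 lower with the largest changes, and 6 of the study's list with tRF-Gln-CTG-026. Members, lists and tests were chosen with earlier results of these data known. The fit was tested on simulated data. Alternatives were library size, voom weights, prior count 0.5, a replicate block, the 4 libraries alone, other filters and totals, and leaving out each library. Leaving out D0 or D27 libraries and TMM factors of fragments were added after seeing the data. The tools were R 4.3.3, limma 3.58.1, Python 3.11.15, scipy 1.17.1, pandas 2.3.3, numpy 2.4.6 and matplotlib 3.10.9.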

Additional observations from a re-analysis of the deposited data

Results flagged for a closer look

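A total of 43 differences between the NS-KO over WT change at D3 and that at D0 or D27 passed an adjusted p under 0.05 (limma, interaction terms) among the named sums. Values below are differences in log2 fold change, D3 minus the other day, and 2 values together are the differences from D0 and from D27. They were single interaction tests over the same 12 libraries, and the comparisons with D0 and with D27 share the D3 libraries.

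Among mitochondrial sums these were upward differences, although the mitochondrial share of reads was higher in NS-KO on all 3 days (means of 43.2% in NS-KO D0 and 12.4% in WT D0, 46.84% in NS-KO D3 and 17.46% in WT D3, 35.09% in NS-KO D27 and 12.71% in WT D27). Other reads of mt-Pro-TGG differed by 4.63 and 4.64, mt-Cys-GCA by 4.05 and 4.69, mt-Ala-TGC by 4.25 and 4.62, mt-His-GTG by 4.02 and 3.90, and mt-Ser-TGA by 3.30 and 4.48. tRF-5b mt-Ser-TGA differed by 4.30 and 4.78, and tRF-5b mt-Gln-TTG by 3.82 and 4.61. These passed by library size alone as well. Not past the threshold by library size were tRF-5c mt-Gln-TTG (2.24 and 3.12), tiRNA-5 mt-Ser-GCT (2.31 and 2.85), and Other reads of mt-Gly-TCC (1.83 and 2.12), mt-Gln-TTG (1.80 and 2.46) and mt-Glu-TTC (1.78 and 1.98).

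Among nuclear sums, tRF-5c Gly-CCC differed by 6.01 and 6.63, tRF-5c Gly-GCC by 3.70 and 4.14, tRF-1 Gly-CCC by 3.63 and 4.42, and tRF-1 Gln-CTG by 3.28 from D0. tRF-1 Asp-GTC differed by 2.82 and 2.60, and by library size by 1.69 and 1.28 (adjusted p = 0.14 and 0.25). Downward differences were tRF-3a of Leu-CAA and Leu-CAG by −1.21 and −1.96, tRF-3b Glu-TTC by −2.25 and −1.63, tRF-5a of Glu-CTC and Glu-TTC by −1.91 from D0, and tRF-1 Met-CAT by −1.89 from D0. From D27 only, tRF-3a Ser-GCT differed by −2.44, tRF-3a of Gly-ACC, Val-AAC and Val-CAC by −1.63, tRF-3a Gln-CTG by −1.50, and Other reads of Leu-CAA and Leu-CAG by −1.37.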

How the results depend on the processing

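Of the 35 named sums that passed, 27 kept their direction and stayed past the threshold wherever they could be tested, 21 of them in all 22 settings and 6 in 21, since some settings lack some sums, and no sum that passed turned its direction. The 83 sums that passed at D3 became 53 with the 4 day 3 libraries alone and 50 to 86 when a library was left out (50 without NS-KO D3 replicate 2, 55 without WT D3 replicate 1). The 2320 fragments became 0 with the 4 libraries alone, where fewer libraries give the spread, and 1422 (without WT D3 replicate 1) to 3033 when a library was left out. Start positions stayed at 60 to 72 (70 with all libraries) and lengths at 25 to 27. The 40 differences between D3 and D0 became 65 by library size and 26 with reads outside tRF-5c as the total, and 15 to 41 when a library was left out (21 and 15 without WT D0 replicate 1 and 2). The 47 between D3 and D27 became 87 by library size, 70 with reads outside tRF-5c as the total, and 31 (without NS-KO D3 replicate 2) to 54 when a library was left out. Where no cause is given it was not tested.

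The difference in the number of tsRNAs, NS-KO D3 minus WT D3, was 1442, and −955.5 at a limit of 10 CPM, where 1 read suffices in WT D3 replicate 1. For tRF-1 it was 22.5, and −111.5 at 10 CPM. For mitochondrial tsRNAs it was 2054, and 885.5 at 50 CPM. Leaving out a library gave 688.5 to 2196 for all, −60 to 105 for tRF-1 and 1267 to 2842 for mitochondrial tsRNAs. Differences in share, in percentage points, were 29.38 for mitochondrial fragments (18.86 to 39.90 without 1 library), 25.98 for Other (17.49 to 34.47, and 9.393 of reads outside tRF-5c), −0.489 for tRF-1 (−3.055 to 2.076, and −3.175 outside tRF-5c), −2.396 for tRF-3a (−4.010 to −0.782 without WT D3 replicate 1, and −5.233 outside tRF-5c) and −24.36 for tRF-5c (−37.31 to −11.42).

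The labels tie same-numbered libraries by number alone. Of 15 pairs of groups, 3 correlated over 0.1 in their deviations (range over the 15 of −0.3402 to 0.3397). With 2 libraries per group this cannot tell whether same-numbered libraries share a batch. With the replicate number as a block, 78 sums, 2212 fragments, 27 lengths and 70 start positions passed at D3, and 31 and 45 sums differed from D0 and D27. Depth limits low fragments most in WT D3 replicate 1, with 81515 reads.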
